A study of Mus musculus with 4 samples.

Results

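The replication-dependent histone genes are the protein-coding genes whose mouse symbols begin with Hist1h, Hist2h, Hist3h or Hist4h. They were chosen by symbol and biotype alone, without regard to their values, and the table of 47069 gene IDs held 65 of them. The 65 comprised 6 H1 linker histone genes, 18 H2A genes, 16 H2B genes, 12 H3 genes and 13 H4 genes. Hist1h2bh and Hist1h2bm, which carry the same kind of symbol, were not analysed here.

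Counts came from tumours of Lewis lung carcinoma, an established mouse lung cancer line, grown under the skin of C57BL/6 mice and cut out 3 weeks after inoculation. The exosome group consisted of 2 libraries, exosome 1 and exosome 2, from RNA of exosomes that tumour pieces released during 12 h in RPMI medium without serum. The medium was spun and passed through a filter, and exosomes for RNA were precipitated with ExoQuick-TC without ultracentrifugation. The primary tumour group also consisted of 2 libraries, tumour 1 and tumour 2. All 4 libraries share the strain and the inoculated line and carry no other treatment or allele, and the question was which genes differ between tumour and exosomes. Adaptors were joined to the 5′ and 3′ ends of total RNA, the amplified product was cut from a gel, and the labels name no selection for poly(A) tails. The libraries are called replicates with no mention of separate animals, and a p-value here measures the spread among the 4 libraries only, which may be technical. Reads carried no molecular identifiers, and intervals and floors cover counting error only.

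Replication-dependent histone genes supply the bulk of the histones that package new DNA, and their messages build up in S phase, when DNA is copied. H2A, H2B, H3 and H4 form the core of the nucleosome, and H1 binds the DNA that enters and leaves it. Their messages mostly lack introns and end in a conserved stem-loop in place of a poly(A) tail. The stem-loop binding protein Slbp and the U7 small nuclear ribonucleoprotein, with Lsm10 and Lsm11, make that end.

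The exosome libraries held 305751 and 217201 counts over all genes, and the tumour libraries 14543691 and 10849811, which is 48.6 times as many in all. A single count was worth 3.27 or 4.60 CPM (counts scaled to library size) in the exosome libraries, and 0.0688 or 0.0922 CPM in tumour. Protein-coding genes held 8637 and 7155 exosome counts and 225850 and 171142 tumour counts. A single gene, Snrpb, held 65.1% and 67.2% of the protein-coding counts in tumour. Of the epithelial and carcinoma markers, 2 of 7 had a count in any library, and whether they mark the inoculated line was not tested. The T cell markers, 5 genes, had none. Of the other markers tested, 2 haemoglobin genes were lower in exosomes by TMM, the scaling described below, and no macrophage, fibroblast, endothelial or muscle marker passed the test. The direction depended on the scaling: Hba-a1 had a log2 difference, exosomes minus tumour, of -1.08 by TMM and 1.72 by library totals. The summed erythroid markers in tumour were 1.84 times those in exosomes by TMM and 0.260 times by library totals, and the summed fibroblast markers 0.694 and 0.0994 times. The part of these markers in the results was not tested.

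The genes share features that the choice by symbol did not use. On GRCm38, 52 lay on chromosome 13 between 21715763 and 23934851, 10 on chromosome 3, 2 on chromosome 11 and 1 on chromosome 6, and 60 had a single exon. The stem-loop was sought on the transcript strand of GENCODE M21 by the 16-base histone stem-loop consensus. It lay after the stop codon in 42 of the 65 genes, 21 to 58 bases downstream (median 31.5). Of the 50 genes with more than 20 annotated bases after the stop codon, 42 held it. Among all 21951 protein-coding genes, 78 (0.355%) held the consensus anywhere in a transcript. Outside the 65, 19 of these genes held it after a stop codon. The stem-loops are printed for 6 genes, 1 for each variant found, because this end separates these messages from polyadenylated ones. Capitals mark the 16 bases of the stem-loop, 5′ to 3′:
Hist1h1c: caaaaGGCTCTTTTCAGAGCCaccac
Hist1h4d: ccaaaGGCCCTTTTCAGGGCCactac
Hist1h3c: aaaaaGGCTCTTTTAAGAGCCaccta
Hist1h4i: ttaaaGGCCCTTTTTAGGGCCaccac
Hist1h4b: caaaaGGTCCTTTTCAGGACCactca
Hist2h2ac: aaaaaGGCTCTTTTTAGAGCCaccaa

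The stem-loop letters of Hist1h1c were the most common and stood in 24 genes of types H1, H2A, H2B and H3. Those of Hist1h4d stood in 7 genes, all H4, and those of Hist1h3c in 6 genes, none of them H4. The letters of Hist1h4i were shared with Hist2h4, those of Hist1h4b with Hist1h4j, and those of Hist2h2ac were found in no other member.

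Many of these genes are near copies of each other, which limits what a count for 1 of them can say. Transcripts with identity of 90% or more across 80% or more of the longer one formed 6 families with 27 members, the largest with 10 H2A genes. Over all 65 genes, a median of 36.7% of the 25-base words of a gene occurred in no other transcript. That median was 93.5% for H1, 20.2% for H2A, 35.0% for H2B, 36.1% for H3 and 49.5% for H4. No unique word was found in 6 genes, and 5 of them, Hist2h2aa1, Hist2h2aa2, Hist2h2bb, Hist2h3b and Hist2h3c1, had no tumour count. The sixth, Hist1h2bq, was 100% identical to Hist1h2br over the aligned part, and each had 62 tumour counts. How the authors treated reads with several matches, and whether they counted by strand, is not given in the sources used here. Counts of single genes in these families are therefore uncertain. In all, 24 members overlapped another annotated gene. The 17 H2A genes that overlapped an annotated microRNA gene on the opposite strand did so with genes that held 0 tumour counts.

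In tumour, all 5 histone types were present and 1 H4 gene stood far above the rest. Of the 65 genes, 57 had a count in tumour, and each of the 57 had a count in both tumour libraries. Hist1h4d, an H4 gene at chr13:23581598-23582735 on the plus strand, had 1663 and 1417 counts in tumour 1 and tumour 2. Those counts were 35.5% and 38.2% of all histone gene counts in the 2 libraries. Per gene length, Hist1h4d reached 291 and 332 FPKM (fragments scaled to gene length and library size). The level of Hist1h4d was 9.66 and 10.7 times that of the next histone gene in the same library. The deposited FPKM imply a length of 393 bases for Hist1h4d, against 1138 bases for its GENCODE M21 transcript, and with the longer length its FPKM would be lower in that proportion. In counts, which no length enters, it stood above every other member in both tumour libraries, the next being Hist1h4a with 204 and 181. Over the 57 genes with a count, the M21 transcript was more than 1.5 times the length behind the FPKM in 8 and shorter by more than that factor in 4.

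**Figure D1:**
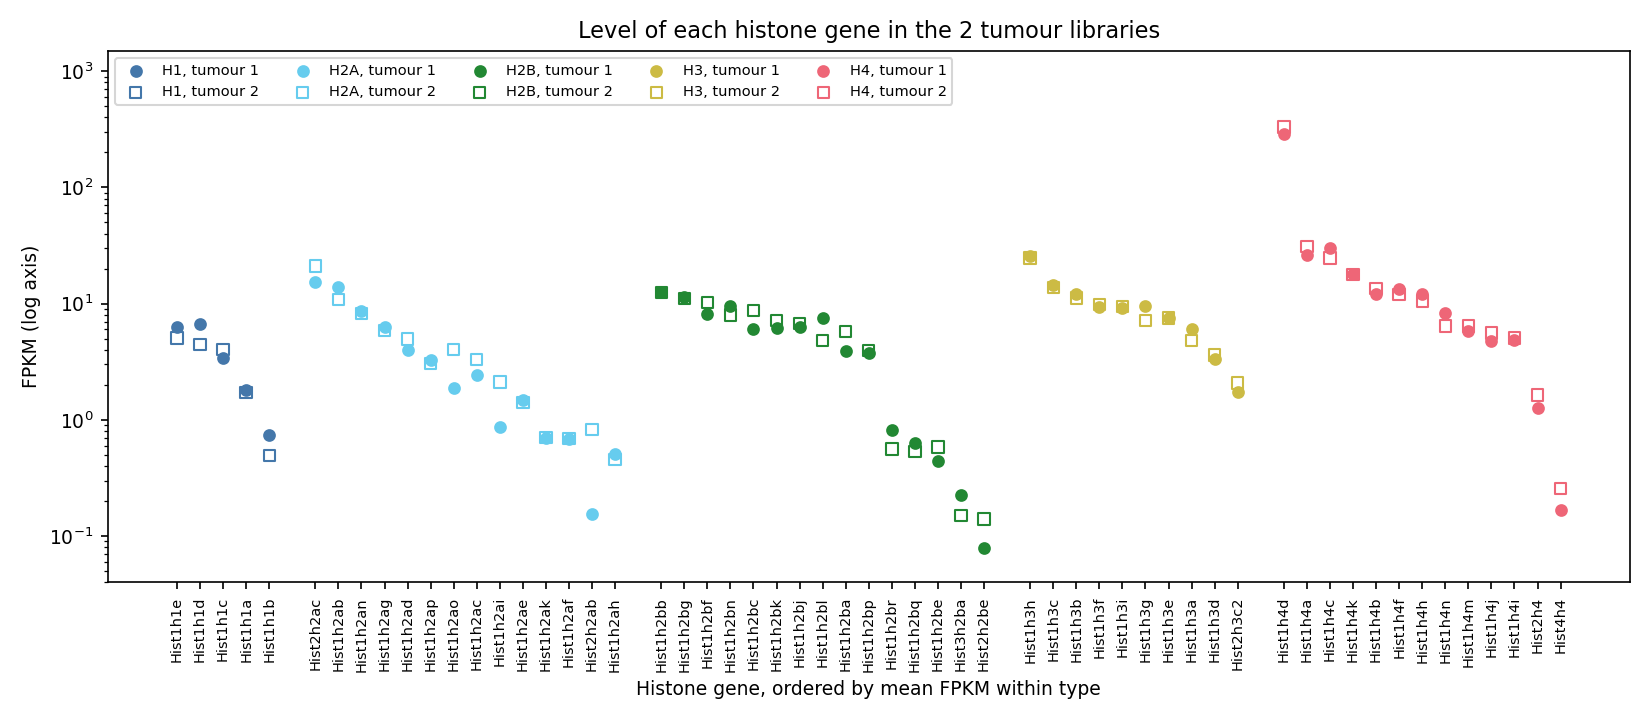
FPKM on a log axis of the 57 histone genes with a tumour count, ordered by mean FPKM within each type; filled circles are tumour 1 and open squares tumour 2. Hist1h4d lies at 291 and 332 FPKM, and the next genes lie under 31 FPKM.

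Behind it in FPKM came Hist1h4a with 28.5 ± 3.48 (SD, n = 2), Hist1h4c with 27.4 ± 3.80 and Hist1h3h with 25.3 ± 0.893. The order of these 3 genes was not resolved, since their values overlapped between libraries. The highest H2A gene was Hist2h2ac at 18.2 ± 4.07 FPKM, and the highest H2B gene was Hist1h2bb at 12.5 ± 0.0250 FPKM. Hist1h1e and Hist1h1d led H1 at 5.70 ± 0.913 and 5.56 ± 1.55 FPKM, a difference within their spread. The deposited FPKM imply lengths of 748 and 744 bases for these genes and 1560 bases for Hist1h1c. In counts Hist1h1c led H1, with 77 and 68 in tumour 1 and tumour 2, against 69 and 41 for Hist1h1e and 72 and 36 for Hist1h1d. Median FPKM over the genes of a type was 2.74 for H1, 1.47 for H2A, 5.53 for H2B, 7.90 for H3 and 11.3 for H4. The low medians of H1 and H2A include genes with no count. The 8 genes with no tumour count were Hist1h1t, the testis H1 gene, Hist1h2aa, Hist2h2aa1, Hist2h2aa2, Hist3h2a, Hist2h2bb, Hist2h3b and Hist2h3c1. For Hist1h1t, Hist1h2aa and Hist3h2a, no count allows up to 0.206 CPM in tumour 1 and 0.277 CPM in tumour 2, the level of 3 counts. The other 5 have no unique 25-base word, and for them no such limit is given.

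The tumour libraries gave nearly the same profile of histone genes. Over the 47 members with at least 20 counts in the 2 libraries together, the ratio of tumour 2 to tumour 1 in CPM had a median of 0.998 and ran from 0.462 to 1.57. The chi-square statistic over these 47 genes was 1.23 per degree of freedom, where sampling noise alone gives about 1. The same statistic over the 1369 genes of the whole table with at least 20 counts was 33.3, so these are not 1 library deposited under different names.

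Exosomes held few histone counts: 33 in exosome 1 and 23 in exosome 2, against 4691 and 3711 in tumour 1 and tumour 2. As a share of all gene counts, histone genes made up 0.0108% of exosome 1 (exact Clopper-Pearson 95% interval 0.00743% to 0.0152%) and 0.0106% of exosome 2 (0.00671% to 0.0159%). In tumour the shares were 0.0323% (0.0313% to 0.0332%) and 0.0342% (0.0331% to 0.0353%). The groups did not overlap, and the mean shares were 0.0107% ± 0.000144 in exosomes and 0.0332% ± 0.00138 in tumour (SD, n = 2), 3.11 times higher in tumour. Without Hist1h4d the tumour share was 2.04 times the exosome share. At the tumour share, the 2 exosome libraries would hold 173 histone counts, and they held 56. An exact permutation test of 2 libraries against 2 cannot give a two-sided p below 0.333. In bulk libraries, fewer cells of a type and less RNA of a kind per cell or vesicle cannot be told apart.

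How large this difference was depended on what each library was scaled to. Scaled by TMM, which sets the trimmed mean of the gene ratios equal, the histone sum was 40.8 CPM in exosomes and 877 CPM in tumour, 21.5 times higher in tumour. Between the 2 scalings, the median difference of all 1442 genes tested moved from 0.02 to 2.75 on the log2 scale, exosomes minus tumour, a shift of 2.74. As a share of protein-coding counts, histone genes were 6.03 times higher in tumour, and 17.8 times with Snrpb left out of the total. As a share of counts outside small RNA classes the ratio was 3.84, and as a share of summed FPKM it was 1.84 (1.09 without Hist1h4d). Tumour was above exosomes for the histone sum in each of these versions.

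**Figure D2:**
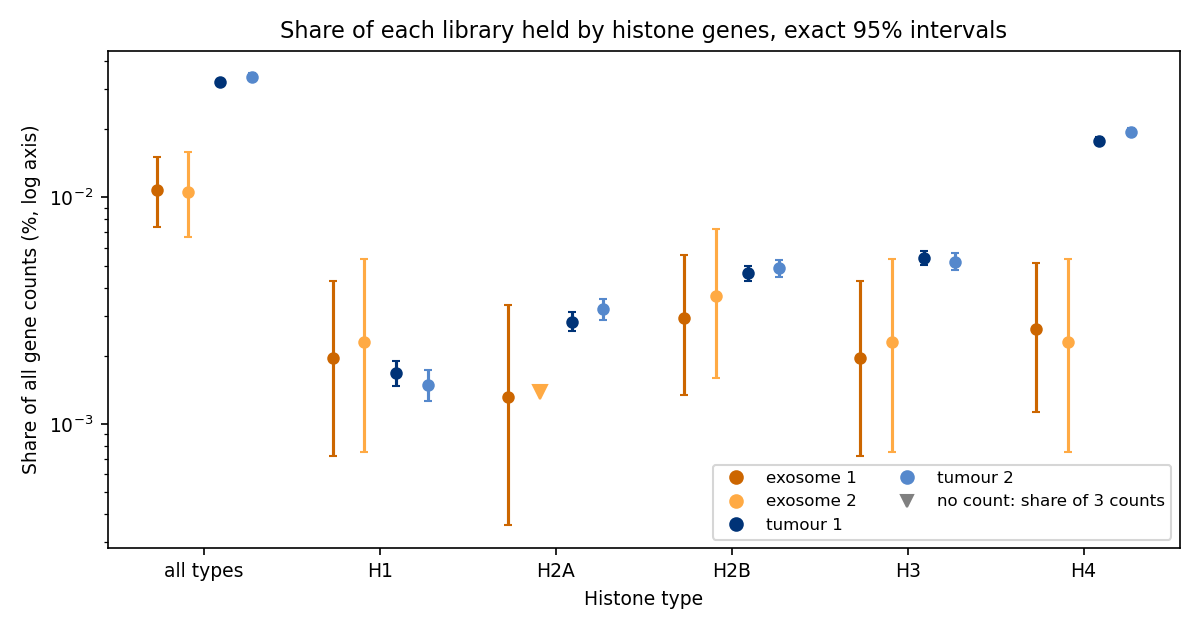
Share of all gene counts, in percent on a log axis, held by all histone genes and by each type in the 4 libraries; bars are exact 95% intervals for counting error, and the triangle marks the share that 3 counts would give where no count was seen. H4 is separated between groups, while the H1 shares of exosomes (0.00196% and 0.00230%) lie above those of tumour (0.00167% and 0.00148%) with intervals that overlap.

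The 5 types did not stand equally far from tumour. H4 had 8 and 5 counts in exosome 1 and exosome 2 against 2578 and 2109 in tumour 1 and tumour 2, and its share of all gene counts was 7.56 times higher in tumour. Without Hist1h4d, the H4 share was 3.07 times higher in tumour. H2A had 4 and 0 exosome counts against 411 and 348, with a share 4.61 times higher in tumour, and 2.31 times on exosome 1 without exosome 2. The exosome 1 interval, 0.000356% to 0.00335%, reached above the share of both tumour libraries. The 0 of 217201 counts in exosome 2 allows an H2A share of up to 0.00138%, below the H2A share of either tumour library, 0.00283% and 0.00321%.

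H3 had 6 and 5 exosome counts against 787 and 565, with a share 2.49 times higher in tumour. The exosome 2 interval of H3, 0.000747% to 0.00537%, reached above the share of tumour 2, 0.00521%. H2B had 9 and 8 exosome counts against 672 and 528, with a share 1.43 times higher in tumour. The H2B intervals of exosome 1 and exosome 2, 0.00135% to 0.00559% and 0.00159% to 0.00726%, held the shares of both tumour libraries, 0.00462% and 0.00487%. H1 had 6 and 5 exosome counts against 243 and 161, and its share in tumour was 0.740 times that in exosomes. By library share, then, H1 was the type whose mean lay the other way, with counting intervals that overlap between groups. By TMM the ratios of tumour to exosomes were 5.15 for H1, 29.1 for H2A, 10.0 for H2B, 17.4 for H3 and 52.0 for H4, so that H1 was also above 1. The shares of summed FPKM overlapped between groups for H2A, H2B and H3. That of H1 did not overlap, and in tumour it was 0.311 times that in exosomes. For H1, the share of counts outside small RNA classes in tumour was 0.913 times that in exosomes, and that of protein-coding counts 1.45 times.

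Within the histone counts themselves, where no scaling enters, the mix of types differed. H1 held 11 of 56 exosome counts, 19.6% (exact 95% interval 10.2% to 32.4%), and 404 of 8402 tumour counts, 4.81% (4.36% to 5.29%). H2B held 17 exosome counts, 30.4% (18.8% to 44.1%), against 14.3% (13.5% to 15%) in tumour. H4 held 13 exosome counts, 23.2% (13% to 36.4%), against 55.8% (54.7% to 56.9%) in tumour. The intervals of these 3 types did not overlap, while those of H3 (10.2% to 32.4% and 15.3% to 16.9%) and H2A (1.98% to 17.3% and 8.43% to 9.67%) did. With Hist1h4d left out, H1 was 20.4% (10.6% to 33.5%) of exosome histone counts and 7.59% (6.89% to 8.34%) of tumour's. H4 without Hist1h4d was 20.4% (10.6% to 33.5%) against 30.2% (29.0% to 31.4%). The larger share of H1 in exosomes thus held without Hist1h4d, and the intervals of H4 and of H2B (19.5% to 45.6% against 21.4% to 23.7%) then overlapped. Of the 11 exosome H1 counts, 5 were those of Hist1h1d, and the share without that gene was not computed. The libraries of a group were summed for these intervals, which cover counting error only, and the differences were not tested across libraries.

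At the level of single genes, exosomes gave 1 or a few counts or none. In exosomes, 31 of the 65 genes had a count, 10 of them in both libraries, and no gene had more than 5 counts over both. By type, exosome counts were seen for 3 H1 genes, 4 H2A genes, 10 H2B genes, 6 H3 genes and 8 H4 genes. Scaled by TMM, both tumour libraries lay above both exosome libraries for 55 of the 57 genes with a count, where 27.6% of all 14421 genes with a count in the table did so. By library totals this held for 37 of the 57, against 24.2% of all genes with a count. The other way, 2 histone genes were higher in both exosome libraries, Hist1h1d (2 and 3 exosome counts) and Hist1h3a (1 and 1). The share of all genes that lay that way was not counted, so no result is read from these 2. Genes with no exosome count, 34 of the 65, meet this under either scaling wherever they have tumour counts. The background also includes genes with no count in a tumour library, which cannot meet it.

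The test across genes was edgeR's quasi-likelihood test with TMM scaling and Benjamini-Hochberg adjustment over the 1442 genes that passed a filter of 1.79 CPM in 2 libraries. The filter passed 43 of the 65 genes, and 37 were lower in exosomes at an adjusted p below 0.05, 6 were not called and 0 were higher (also 0 at an unadjusted p below 0.05, and with DESeq2). Over all genes tested, 22.1% were lower and 16% higher, and over the 911 other protein-coding genes among them 6.92% and 5.6%. Of the 43, 33 were not over the filter in both exosome libraries, 14 had no exosome count, and genes that pass only through tumour could hardly have come out otherwise. A closer background is the 223 other protein-coding genes over the filter in both tumour libraries, of which 28.3% were lower, beside 37 of the 41 histone genes over it there. Among genes over the filter in all 4 libraries, 9 of 10 histone genes and 20.4% of 181 other protein-coding genes were lower. The 22 histone genes not tested held 243 tumour counts and 2 exosome counts.

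With library totals in place of TMM, 6 of the 43 were lower and 0 higher, while 11.5% of all genes tested were lower and 63.8% higher (1.21% and 72.4% of the 911). The 6 were Hist1h4d, Hist1h4a, Hist1h4f, Hist1h3h, Hist1h3c and Hist1h2bg. Of these, only Hist1h4d and Hist1h4a had an exosome count, and the others passed the filter only through tumour. With that scaling 10 of the 43 fitted differences were above 0, against a TMM fit in which all 43 were below 0. The median fitted difference of the 43 was -4.18 by TMM and -1.48 by library totals, and that of 911 other protein-coding genes was 0.12 and 2.88. With the 14 genes without an exosome count set to the bound that 3 counts allow, the TMM median of the 43 was -2.63. Over the 29 genes with an exosome count it was -3.08 by TMM and -0.33 by library totals.

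**Figure D3:**
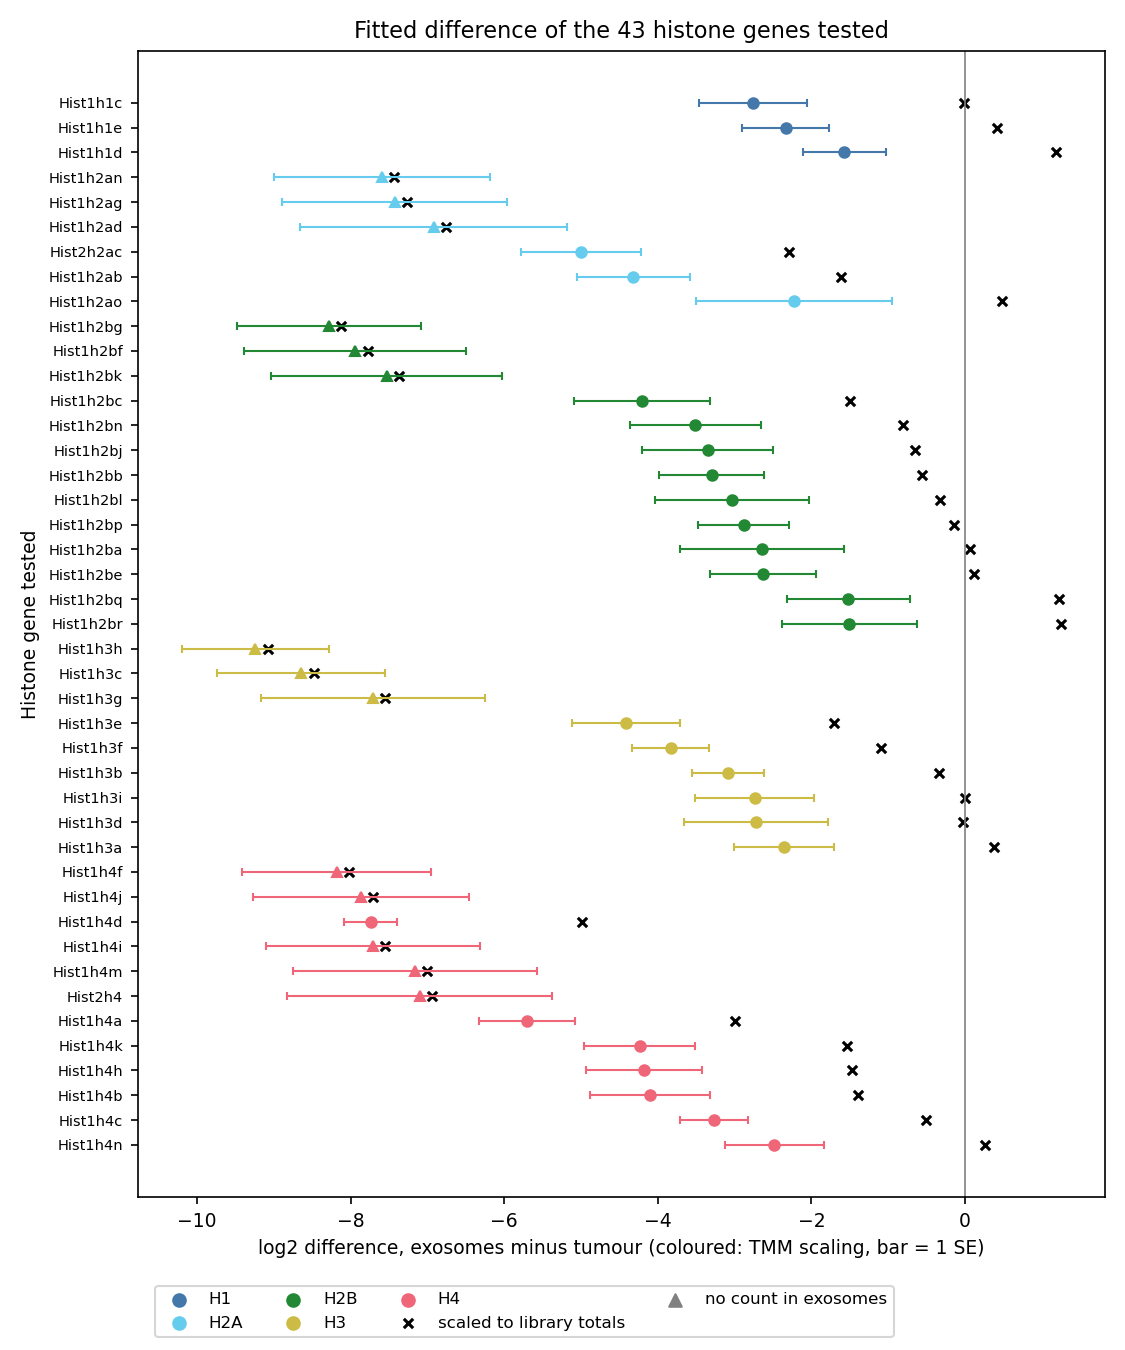
Fitted log2 difference, exosomes minus tumour, of the 43 histone genes tested; coloured points with bars of 1 SE are the TMM fit, crosses the fit to library totals, and triangles are genes with no exosome count, whose position depends on the fit. All coloured points lie below 0, and 10 crosses lie above it.

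H4 genes carried the clearest single difference. Hist1h4d had 1 and 1 exosome counts, with the 1663 and 1417 tumour counts given above. The groups were far apart: by library totals the tumour level was 31.7 times the exosome level (95% counting interval 8.77 to 262), and by TMM 217 times (60.0 to 1791). On the log2 scale Hist1h4d fell by 7.74 (SE 0.34, edgeR adjusted p = 6.05e-07) by TMM and its difference by library totals was -4.99 (adjusted p = 1.22e-09). Of the 25-base words of its 1138-base GENCODE M21 transcript, 84.2% occurred in no other transcript. The authors counted over 393 bases, so the share for the counted stretch may differ and was not measured.

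Hist1h4a, at chr13:23760692-23761230 on the minus strand, had 1 and 0 exosome counts against tumour's 204 and 181. Its level was 7.93 times higher in tumour by library totals (1.41 to 314) and its log2 difference was -5.70 by TMM (SE 0.63, edgeR adjusted p = 0.000165) and -2.99 by library totals (adjusted p = 0.00979). Hist1h4c had 3 and 1 exosome counts against tumour's 173 and 106. Hist1h4c fell by 3.27 on the log2 scale by TMM (SE 0.44, edgeR adjusted p = 0.000581), and by library totals its difference was -0.51 (adjusted p = 0.518). Of these genes, Hist1h4a was called under both scalings and Hist1h4c by TMM only, and the difference between them was not tested.

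The other H4 genes tested, 9 in number, had between 0 and 2 exosome counts each and between 59 and 141 tumour counts, and all 9 were lower by TMM. Of these, Hist1h4f (76 and 51 tumour counts), Hist1h4j, Hist1h4i, Hist1h4m and Hist2h4 had no exosome count. Measured against the floor of 3 counts per library, the TMM levels were lower by at least 2.95-fold, 2.40-fold, 2.15-fold, 1.47-fold and 1.42-fold in that order. Hist1h4m was 99.8% identical to Hist1h4n over the aligned part, with 6.61% unique 25-base words, so its bound is uncertain. Hist1h4n, with 1 and 1 exosome counts against 52 and 30, had a log2 difference of -2.48 by TMM (edgeR adjusted p = 0.0181) and 0.26 by library totals. Hist1h4k, with 1 and 0 exosome counts against 81 and 60, and Hist1h4h, with 0 and 1 against 83 and 54, differed by -4.23 and -4.18 by TMM and by -1.53 and -1.48 by library totals.

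Among H3 genes, Hist1h3h, at chr13:21717659-21718069 on the plus strand, had 0 and 0 exosome counts against tumour's 155 and 110. Hist1h3h was at least 6.19-fold lower in exosomes by TMM, but 99.0% identical to Hist1h3i over the aligned part, with 4.39% unique 25-base words. Hist1h3i had 0 and 2 exosome counts against 55 and 42, with a log2 difference of -2.74 by TMM (edgeR adjusted p = 0.0263) and 0.0064 by library totals. Reads of this pair may have been split between them in a way the counts do not show.

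Hist1h3c had 0 and 0 exosome counts against 102 and 73 and was at least 4.09-fold lower by TMM. For Hist1h3h and Hist1h3c, as for the other genes without an exosome count, the tumour level by library totals lay under the 3-count floor of exosomes, so no fold is given there. Hist1h3f had 1 and 1 exosome counts against 116 and 91, and Hist1h3b had 2 and 1 against 109 and 75. Their log2 differences were -3.83 (SE 0.50, edgeR adjusted p = 0.000462) and -3.08 (SE 0.47, adjusted p = 0.00113) by TMM, and -1.09 and -0.33 by library totals, where neither was called. Hist1h3e, with 1 and 0 exosome counts against 91 and 68, differed by -4.41 by TMM and -1.70 by library totals, and Hist1h3g, with none against 59 and 33, was at least 2.11-fold lower by TMM. Of the 9 H3 genes tested, 8 were lower by TMM, and Hist1h3d, with 1 and 0 exosome counts against 27 and 22, was not called (-2.72, edgeR adjusted p = 0.0578).

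H2B had the most genes with an exosome count, 10 of 16. Of 13 tested, 10 were lower by TMM and 1, Hist1h2bg, also by library totals. Hist1h2bg, at chr13:23571396-23572013 on the plus strand, had 0 and 0 exosome counts against tumour's 79 and 57 and was at least 3.18-fold lower by TMM. Hist1h2bb had 2 and 0 exosome counts against 82 and 61, a log2 difference of -3.30 by TMM (SE 0.68, edgeR adjusted p = 0.00579) and -0.56 by library totals. Hist1h2bp had 1 and 1 exosome counts against 60 and 47, and differed by -2.88 (SE 0.59, edgeR adjusted p = 0.00532) by TMM and by -0.14 by library totals. Hist1h2bc had 1 and 0 exosome counts against 65 and 70, with -4.20 by TMM and -1.49 by library totals. Hist1h2bf and Hist1h2bk had no exosome count against 55 and 51, and 43 and 37, and by TMM the first was at least 2.54-fold and the second at least 1.90-fold lower. Both belong to a family of near copies, with 21.7% and 24.3% unique 25-base words, so these bounds are uncertain.

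The 3 H2B genes not called were Hist1h2ba, Hist1h2bq and Hist1h2br. Hist1h2bq had 3 and 0 exosome counts against 38 and 24, and its identical copy Hist1h2br had 0 and 3 against 41 and 21. Each copy was thus seen in a different exosome library. Both libraries of exosomes were at 3 counts for the pair. For either gene alone, the tumour level was 0.426 times that of exosomes by library totals (0.139 to 2.12) and 2.91 times by TMM (0.951 to 14.5). These intervals include 1, but each uses the counts of 1 copy only. With near-identical copies summed, 27 of 29 features were lower in exosomes by TMM, the pair among them.

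H2A genes were thinly covered in exosomes, with 1 count each for Hist2h2ac, Hist1h2ab, Hist1h2ao and Hist1h2ai, all in exosome 1. Hist2h2ac, at chr3:96220361-96220880 on the minus strand, had 1 and 0 exosome counts against tumour's 116 and 119. Its log2 difference was -4.998 by TMM (SE 0.78, edgeR adjusted p = 0.00127) and -2.29 by library totals (adjusted p = 0.0649). Hist1h2ab, with 95 and 56 tumour counts, differed by -4.32 by TMM (SE 0.74, edgeR adjusted p = 0.00213) and -1.61 by library totals (adjusted p = 0.216). Hist1h2an, Hist1h2ag and Hist1h2ad had no exosome count. By TMM the first was at least 1.96-fold lower, the second at least 1.75-fold and the third at least 1.24-fold. All belong to the largest family of near copies, with 9.21%, 18.7% and 30.7% unique 25-base words, so these bounds are uncertain. Hist1h2ao (13 and 21 tumour counts) was not called, and 12 of the 18 H2A genes were not tested.

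H1 genes, which encode the linker histones, had the lowest ratio of tumour to exosomes of the 5 types, both in summed counts by TMM and by library totals. Hist1h1c had 3 and 0 exosome counts against 77 and 68, with a log2 difference of -2.76 by TMM (SE 0.70, edgeR adjusted p = 0.0158) and -0.01 by library totals. Hist1h1e, at chr13:23620629-23622558 on the minus strand, had 1 and 2 exosome counts against 69 and 41, a difference of -2.33 by TMM (SE 0.57, edgeR adjusted p = 0.013) and 0.42 by library totals. Hist1h1d had 2 and 3 exosome counts, the most of any histone gene, against 72 and 36, and was not called at -1.57 by TMM (SE 0.54, edgeR adjusted p = 0.0576) or 1.19 by library totals (adjusted p = 0.155). Hist1h1a and Hist1h1b had no exosome count against 17 and 12, and 8 and 4, in tumour and were not tested. Hist1h1e overlaps Hist1h2be on the same strand, and without strand or read positions the counts of such genes can borrow from each other.

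Leaving out a library changed some of these calls. The group concerned then had 1 library, the spread came from the other group, and the lone library was assumed to vary like that group. Without exosome 1, 8 genes were no longer called, with edgeR adjusted p from 0.0569 to 0.231: Hist1h1e (-1.77), Hist1h2be, Hist1h2bl, Hist1h2bn, Hist1h3a, Hist1h3i, Hist1h4n and Hist1h2ad. Hist1h2bq, not called in the full fit, was then called (adjusted p = 0.0284). Without exosome 2, Hist1h2bj, Hist1h3a and Hist1h4n were no longer called, with edgeR adjusted p from 0.054 to 0.0761, and Hist1h2br was (0.0265). Without either tumour library the filter of 1.79 CPM rises, since it is set from the middle library size, and only Hist1h4d was tested, and called. On the genes of the fit to all 4 libraries, the number lower was then 38 without tumour 1 and 37 without tumour 2.

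H2A and H2B genes often lie head to head and share the stretch between their starts. Of these pairs, 12 were annotated, with 175 to 305 bases between the genes, and the members of a pair were often unequal in tumour. Hist2h2ac had 116 and 119 tumour counts and its partner Hist2h2be 3 and 4. Hist1h2bg had 79 and 57 and its partner Hist1h2ae 10 and 7, while Hist1h2ag (44 and 31) and Hist1h2bj (42 and 34) were alike. These are counts, not levels per length. In exosomes no gene of the 12 pairs had more than 3 counts.

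Promoters are described as a feature of the family, and their part in the difference between tumour and exosomes was not tested. RefSeq start windows of GRCm38.p6 were matched for 59 of the 65 genes by position, within 200 bases of the annotated start, and by name. In the 250 bases before the start, on both strands, CCAAT stood in 48 of 59 (81.4%), against 33.8% of 32851 windows of all genes. It stood in all 5 H1, all 18 H2A and all 14 H2B windows, in 8 of 10 H3 windows and in 3 of 12 H4 windows. TATAAA stood in 28 of 59 (47.5%), against 12.4%, and the octamer ATTTGCAT in 12 of 59 (20.3%), against 1.60%. The octamer was found in 7 of 18 H2A and 5 of 14 H2B windows, and these letters were not found in the H1, H3 and H4 windows. The motifs do not overlap in sequence, but head-to-head pairs share part of a window. A match is a description of the letters and says nothing of binding.

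The 100 bases before the RefSeq start are printed for 1 gene of each type named above, 5′ to 3′ on the gene's strand, to show how these letters are placed. Capitals mark the letters of the 3 motifs just named, reverse-complemented where they lie on the other strand. The windows are chr13:23581468-23581567 (plus strand) for Hist1h4d, chr13:21717528-21717627 (plus) for Hist1h3h, chr13:23571300-23571399 (plus) for Hist1h2bg, chr3:96220881-96220980 (minus) for Hist2h2ac and chr13:23622559-23622658 (minus) for Hist1h1e, all on GRCm38.p6:
Hist1h4d: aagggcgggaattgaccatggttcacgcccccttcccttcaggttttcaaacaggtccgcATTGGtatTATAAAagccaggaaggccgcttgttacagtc
Hist1h3h: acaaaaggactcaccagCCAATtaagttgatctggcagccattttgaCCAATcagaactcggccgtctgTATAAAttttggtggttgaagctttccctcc
Hist1h2bg: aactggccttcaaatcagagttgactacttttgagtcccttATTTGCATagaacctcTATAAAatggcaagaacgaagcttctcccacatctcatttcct
Hist2h2ac: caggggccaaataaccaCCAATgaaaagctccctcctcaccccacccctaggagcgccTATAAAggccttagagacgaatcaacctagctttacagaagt
Hist1h1e: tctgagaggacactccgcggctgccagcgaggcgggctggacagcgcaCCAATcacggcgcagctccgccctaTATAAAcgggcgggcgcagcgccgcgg

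All 5 windows hold TATAAA near the start, but only 28 of the 59 matched windows held it, so this layout is not that of every member. The H4 window has its CCAAT letters on the other strand, the H3 window has them in several copies, and the H2B window has the octamer just before TATAAA.

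Genes that make, place or accompany histones were set beside the family. Histone variants with polyadenylated messages, 11 genes that include H3f3b, an H3.3 gene, had 8 and 5 exosome counts against tumour's 57 and 39. By TMM their sum in tumour was 1.05 times that in exosomes, against 21.5 times for the replication-dependent genes, and 0.153 times by library totals, against 3.11. H3f3b was the only variant tested, with 3 and 1 exosome counts against 31 and 21, and was not called (-0.86, edgeR adjusted p = 0.357). Genes that process histone messages, 20 of them with Slbp, Lsm10, Lsm11 and Npat, had 10 and 10 exosome counts against 91 and 58, and the single gene tested, Fip1l1, a polyadenylation factor, was not called (-0.41, adjusted p = 0.799). Slbp itself had 2 and 0 exosome counts against 3 and 4.

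Histone chaperones, 18 genes, had 21 and 22 exosome counts against 373 and 222, and 1 of 4 tested was lower by TMM. That gene was Nap1l1, a carrier of H2A and H2B, at -1.26 (SE 0.32, edgeR adjusted p = 0.0152), and 1.52 by library totals. Of 31 S phase genes, with 11 and 25 exosome counts against 194 and 124, 2 were tested and 1 was lower. Top2a, which untangles copied DNA, had 1 and 1 exosome counts against 59 and 26 and fell by 2.52 on the log2 scale by TMM (SE 0.76, edgeR adjusted p = 0.0337), with 0.22 by library totals. Mki67, a marker of dividing cells, was not called (-0.27, edgeR adjusted p = 0.828).

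Abundant polyadenylated messages, 16 genes all tested, had 277 and 207 exosome counts against 1917 and 1149, with 1 higher and 1 lower by TMM. Eef2, a translation factor, was higher at 1.01 (SE 0.28, edgeR adjusted p = 0.0231), and Actb, which encodes cytoskeletal actin, was not called at 0.19 (adjusted p = 0.511). The sum of these genes in tumour was 0.884 times that in exosomes by TMM and 0.128 times by library totals. On either scale, the ratios of all 5 of these lists lay below the ratio of every histone type, and the difference was not tested.

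**Figure D4:**
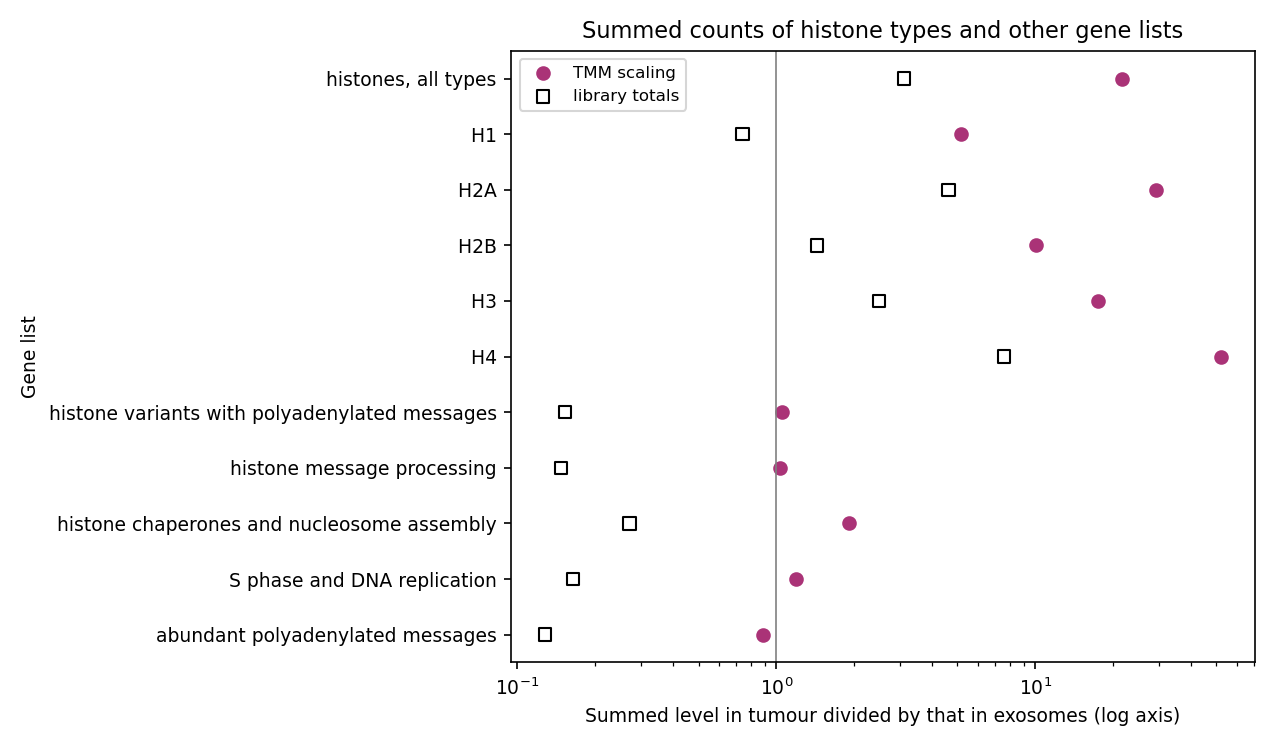
Summed level in tumour divided by that in exosomes, on a log axis, for the histone types and 5 other gene lists; filled circles are TMM scaling and open squares library totals. All histone types lie to the right of all 5 lists on each scale, the nearest being H1 (5.15 and 0.740) and the histone chaperones (1.91 and 0.271).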

How the data were processed

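Gene counts and FPKM of 4 libraries were used. The deposited counts are whole numbers without normalization, and FPKM are, as deposited, relative to gene length and library total, since count divided by length and total gave the FPKM within 0.0903%. Per the submitters' processing notes, TopHat2 2.0.9, Cufflinks 2.1.1 and Cuffdiff were used with GRCm38.p4. The sources used here do not name the counting tool, its annotation, its strand setting or its treatment of reads with several matches. Symbols, biotypes and transcripts were taken from GENCODE M21, which matched 46488 of 47069 IDs.

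All genes were fitted together with edgeR 4.0.16 in R 4.3.3 (filterByExpr with a minimum count of 10 and total of 15, TMM, two-sided quasi-likelihood test, group as the only term, Benjamini-Hochberg over 1442 genes, threshold 0.05). The TMM factors of exosome 1, exosome 2, tumour 1 and tumour 2 were 2.39, 2.91, 0.391 and 0.368. Differences are log2, exosomes minus tumour. Folds against no exosome count use a floor of 3 counts in each library. Ratios of few counts carry exact conditional 95% counting intervals. The fit code was run on simulated counts drawn from the same mean profile for both groups. Changes were set only in genes with enough expected counts in the smallest library. That run says nothing of genes with few exosome counts or of the choice of scaling. Copies were found with blastn 2.17.0.

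Named genes were all members tested, the leading untested members of each type, and up to 3 tested genes with the highest mean of each list. Exceptions named after their values were seen are Slbp, Lsm10, Lsm11, Npat, Hist1h2ai and the members without a tumour count. The genes and the 5 pathway and 7 marker lists were chosen with earlier results of these data known. Alternatives were DESeq2 1.42.0, limma 3.58.1 on log2 FPKM, median-of-ratios factors, library totals, other filters, protein-coding genes only, copies summed, a replicate block and each library left out. Leaving out each library on the genes of the full fit, Snrpb and Hist1h4d were alternatives chosen after seeing the data.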

Additional observations from a re-analysis of the deposited data

How the results depend on the processing

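Exosome depth limits every value: most histone genes had 0 or 1 count in an exosome library. The number of histone genes lower in exosomes was 37 of 43 in the fit reported. It was 6 of 43 with library totals, and 16 and 15 of 43 with limma on log2(FPKM + 1) and log2(FPKM + 0.1). DESeq2 gave 32 of 57, median-of-ratios factors 39 of 43 and protein-coding genes only 39 of 44. With no filter it was 47 of 57, and with copies summed 27 of 29 features. Over all genes tested, 22.1% were lower in the fit reported and 11.5% with library totals. That share is not given for the other fits, so their counts alone cannot tell a difference of histone genes from a shift of all genes. Leaving out each library gave 1 to 35 lower, and 31 to 38 on the genes of the full fit. The number of histone genes tested differed: 47 without exosome 1, 49 without exosome 2 and only 1, Hist1h4d, without either tumour library. The lowest count in that first range is therefore 1 of 1 tested. No histone gene was higher in any of the fits named here. The replicate numbers do not pair the libraries by any label (correlation of deviations -0.020), and with a replicate block 40 were lower. The tumour share was 3.11 times the exosome share. It was 6.03 of protein-coding counts, 17.8 of those without Snrpb, 3.84 outside small RNA classes, 1.84 of summed FPKM, 3.29 without members that overlap another gene, 2.04 without Hist1h4d and 3.02 to 3.20 leaving out each library. With library totals, the lists had higher 1 (message processing), 3 (chaperones), 1 (S phase) and 15 (abundant messages), and 0 lower in the last 3. With that scaling 63.8% of all genes tested were higher, and 72.4% of the 911 protein-coding genes other than histone genes. DESeq2 gave 2 chaperones and 0 S phase genes lower and 0 abundant messages higher, and the replicate block 2 chaperones lower and 2 abundant messages higher. Differences above 0 with library totals were Hist1h1d 1.19, Hist1h1e 0.42, Hist1h2ao 0.48, Hist1h2ba 0.067, Hist1h2be 0.11, Hist1h2bq 1.23, Hist1h2br 1.25, Hist1h3a 0.38, Hist1h3i 0.0064 and Hist1h4n 0.26. With log2(FPKM + 1) they were Hist1h1d 1.10, Hist1h1e 0.34, Hist1h2be 0.048, Hist1h2bq 0.21, Hist1h2br 0.41, Hist1h3a 0.37 and Hist1h4n 0.27, and with log2(FPKM + 0.1) Hist1h1d 1.21, Hist1h1e 0.37, Hist1h2be 0.11, Hist1h3a 0.42 and Hist1h4n 0.30. The cause of these changes was not tested.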
